A study of Rattus norvegicus with 18 samples.

Results

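The genes that make and break down cyclic nucleotides were followed in the proximal stump of the cut rat sciatic nerve, the part that stays joined to the spinal cord, during the first 9 h after transection. Members were taken by name, as all probes that are not controls and whose gene name in the scanner files is Adcy or Pde followed by a number, with or without letters after the number for the Pde genes. This gave 35 of the 35287 gene names on the array, 10 of them adenylyl cyclases and 25 named as phosphodiesterases, with 45 probes in all. Of these genes 8 had more than 1 probe, and the probe with the highest mean over the 18 arrays stands for each gene below unless another is named. The choice used names and brightness and no difference between time-points. The tissue came from adult male Sprague-Dawley rats, operated under injected anaesthesia and with no genetic change named. A stretch of the left sciatic nerve was cut out, and a proximal nerve segment was taken 0.5, 1, 3, 6 or 9 h later, with 0 h as the control time-point and no sham-operated group. Each time-point had 3 arrays. The labels do not say whether an array holds RNA of 1 rat or of a pool, so P-values measure the spread between these arrays. The cut nerve segment holds Schwann cells, fibroblasts, vessels, fat and immune cells, and in such bulk tissue fewer cells of a type and less RNA per cell cannot be told apart.

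Adenylyl cyclases are membrane enzymes, except for the soluble Adcy10, that turn ATP into cAMP when a receptor acts on them through a stimulatory G protein. Cyclic nucleotide phosphodiesterases break the signal down. The Pde4, Pde7 and Pde8 families act on cAMP, Pde5, Pde6 and Pde9 on cGMP, and Pde1, Pde2, Pde3, Pde10 and Pde11 on both. In Schwann cells cAMP supports the expression of myelin genes, and in leukocytes it restrains activation. Names and function part for some members. Pde12 is a phosphodiesterase of 2′,5′-linked oligoadenylates and of RNA tails, Pde6d carries prenylated proteins, and Pde4dip, myomegalin, is a scaffold of the centrosome and Golgi, so none of these is known as an enzyme of cyclic nucleotides.

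The probes are DNA of 60 bases, given here with their positions on the rn4 build as the files hold them. Both probes given here lie on the bases for the conserved catalytic site of phosphodiesterases, where the capitals mark the codons for the first histidine and aspartate of its metal-binding motif. They were chosen, after values were seen, because of the 45 probes these 2 read through this motif in a forward frame without a stop.
Pde4d, chr18_random:266188-266247, plus strand: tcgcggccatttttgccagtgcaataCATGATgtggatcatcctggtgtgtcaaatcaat
Pde5a, chr2:219515832-219515891, plus strand: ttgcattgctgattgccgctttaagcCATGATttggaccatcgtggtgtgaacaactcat
The capitals stand at bases 27 to 32 in both. The array annotation places this Pde4d probe on unplaced sequence of chromosome 18, while RefSeq places the gene on chromosome 2 of GRCr8.

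Promoter windows of 250 bases before the annotated starts were read from RefSeq (GRCr8) for 24 of the 35 genes, 37 windows in all because some genes have several starts. They were searched on both strands for the cAMP response element TGACGTCA and for its shorter form TGACG, which is part of the full element. The full element stood in 0 of the 37 windows and in 1.59% of all 33469 windows. The shorter form stood in 7 of the 37 windows, those of Adcy9, Pde10a, Pde4a, Pde4d and Pde8a, and in 18.2% of all windows. Neither of the 2 windows of Pde4b held it. No window was read for Adcy8, Pde3b, Pde6d and Pde7b, which were called over the time-points. Of the called genes with a window, Adcy2, Adcy5, Pde4b and Pde12 lacked the shorter form. Adcy9 and Pde8a had a window with it, printed here with the form in capitals.
Adcy9, chr10:11645595-11645844, plus strand: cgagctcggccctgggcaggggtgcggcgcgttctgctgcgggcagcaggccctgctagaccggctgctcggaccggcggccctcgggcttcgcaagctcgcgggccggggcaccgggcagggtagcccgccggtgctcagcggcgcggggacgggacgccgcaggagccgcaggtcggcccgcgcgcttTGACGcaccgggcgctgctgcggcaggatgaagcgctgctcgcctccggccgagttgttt
Pde8a, chr1:144575219-144575468, plus strand: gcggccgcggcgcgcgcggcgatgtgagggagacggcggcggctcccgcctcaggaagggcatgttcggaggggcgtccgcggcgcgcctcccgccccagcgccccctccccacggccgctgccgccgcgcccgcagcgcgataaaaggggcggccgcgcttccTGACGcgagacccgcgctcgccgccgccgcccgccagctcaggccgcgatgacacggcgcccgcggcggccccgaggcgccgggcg
A match describes letters and not a bound site.

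Levels are log2 processed signals relative to the 75th percentile of the array, and a difference of 1 on this scale is a doubling. A level says nothing of the order between genes, because probes differ in brightness. A gene counts as called when the limma P-value stayed below 0.01 before and below 0.05 after Benjamini-Hochberg adjustment over the 32109 probes tested. Probes had to clear the background, by the scanner's flag, in all 3 replicates of some time-point. This held for 32 of the 35 members, 26 of which were above background on all 18 arrays. Pde6b, Pde6c and Pde8b, of which the Pde6 genes encode the enzyme of photoreceptors, were not tested. Scan days differed, with the 0 h and 0.5 h arrays on 1 day, those from 1 h to 6 h and 2 of 9 h on another and the last of 9 h alone, so against 0 h the effect of scan day cannot be told apart from that of time after 0.5 h. Contrasts with 1 h are therefore given as well. No slide held arrays of more than 1 time-point. In every contrast, also those with 1 h or within a scan day, slide thus cannot be told apart from time. Skeletal muscle RNA varied between arrays of 1 time-point, with a summed level of 10 muscle markers of 10.6 on replicate 1 of 0 h and of 6.63 and 7.15 on replicates 2 and 3. Replicate 1 of 6 h stood apart with 93.5% of its spots well above background, against 65.9% to 86.4% on the other arrays.

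The F-test across all 6 time-points called 10 of the 32 members tested, beside 34.6% of all 27200 genes tested, so their share was near the background. They were Adcy2, Adcy5, Adcy8, Adcy9, Pde3b, Pde4b, Pde6d, Pde7b, Pde8a and Pde12. With normexp, another background correction, the F-test was lost for Pde3b, Pde6d, Pde7b, Pde8a and Pde12 (adjusted P = 0.349, 0.133, 0.221, 0.486 and 0.179). With only the arrays of the second scan day, which start at 1 h, it was lost for Adcy9, Pde3b, Pde4b, Pde6d and Pde8a (adjusted P = 0.14, 0.98, 0.128, 0.0717 and 0.0822). No cyclase was called higher at any time-point against 0 h. Of the 10 cyclases 5, Adcy2, Adcy5, Adcy6, Adcy8 and Adcy9, were called lower at both 6 h and 9 h, beside 13% and 15.4% of all genes, and no test compared them with the Pde genes. This holds for the brightest probes, since a dim probe of Adcy6 moved the other way. A second probe of Adcy9 did not pass the F-test (adjusted P = 0.0523). Among the Pde genes, Pde4b, Pde12, Pde3b, Pde1b and Pde7b were each called higher at 1 time-point at least.

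At 0.5 h 1 member was higher, beside 4.27% of all genes, and 1 was lower, beside 1.72%. The same counts of 1 and 1 were found at 1 h, beside 3.59% and 2.04%. At 3 h 3 members were higher and 0 lower, beside 7.16% and 6.85% of all genes. At 6 h the counts were 3 higher and 6 lower, beside 12% and 13%. At 9 h 3 were higher and 7 lower, beside 15.8% and 15.4%. The median change of the members lay between -0.17 and -0.04 at the 5 time-points, and that of all genes tested between 0.0003 and 0.02. These splits depend on the scaling of the arrays. With a shift to the array median, which puts the median change of all genes between -0.16 and -0.09 against 0 h, the 3 h contrast had 3 members higher and 3 lower (beside 5.13% and 7.28% of all genes), the 6 h contrast 2 and 7 (8.23% and 16.8%), and the 9 h contrast 3 and 12 (11.2% and 21.0%). Quantile normalization gave 2 and 2 for 3 h (5.86% and 7.59% of all genes), 2 and 5 for 6 h (9.90% and 15.4%), and 3 and 10 for 9 h (13% and 17.9%). With normexp, which puts the median change of all genes at 0.30 for 1 h and 0.44 for 3 h, the same contrasts had 1 and 0 (2.07% and 1.60% of all genes), 1 and 4 (3.60% and 3.11%), and 0 and 5 (4.59% and 5.15%). The calls against 0 h that normexp kept were those of Adcy9 at 1 h, Pde4b at 3 h and 6 h, Adcy2, Adcy5, Adcy8 and Adcy9 at 6 h and 9 h, and Pde6d at 9 h.

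**Figure D1:**
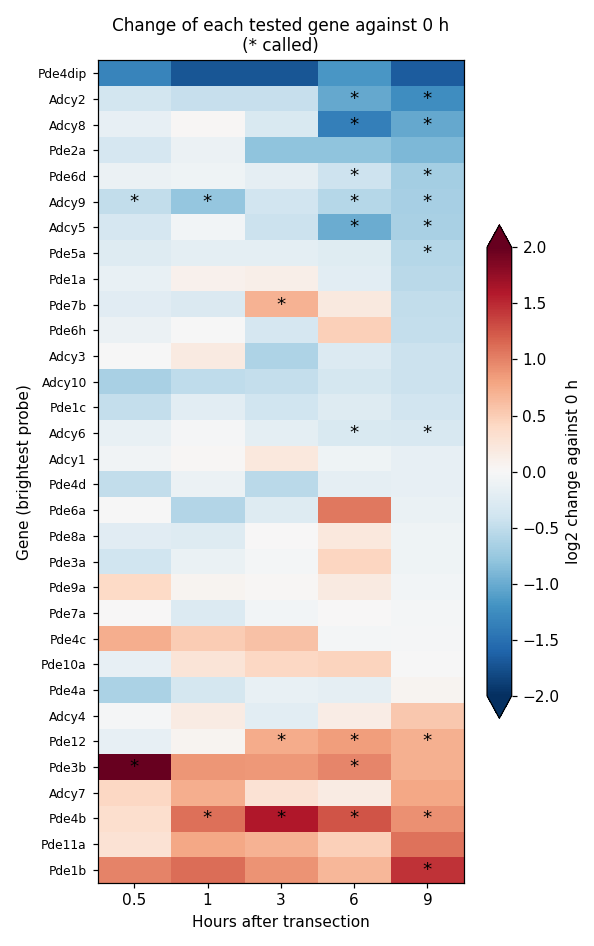
Change in log2 signal against 0 h of the brightest probe of each of the 32 genes tested (rows, ordered by the change at 9 h) at 5 time-points (columns), with red for higher, blue for lower and a star for a called change. Stars of the Adcy rows lie on blue fields, as at 6 h and 9 h in Adcy2 and Adcy8, while Pde4b is red and starred from 1 h to 9 h. The unstarred blue row of Pde4dip varied with skeletal muscle RNA between arrays. The rows of Adcy1, Adcy10, Pde3a, Pde6a, Pde6h and Pde11a include arrays that were not well above background.

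Contrasts with 1 h leave out the scan day of 0 h. At 3 h 2 members were higher than at 1 h (Pde7b and Pde12), beside 5.58% of all genes, and 1 was lower (Adcy3), beside 4.57%. At 6 h 2 were higher (Pde8a and Pde12) and 4 lower (Adcy2, Adcy5, Adcy6 and Adcy8), beside 11.4% and 12.6%. At 9 h 1 was higher (Pde12) and 6 lower (Adcy2, Adcy3, Adcy5, Adcy6, Adcy8 and Pde6d), beside 11.7% and 13.7%. Within the second scan day alone, 2 members were called for 3 h, 5 for 6 h and 5 for 9 h, against 3, 6 and 7 with all arrays. The share of all genes called within a single scan day was not computed, so such counts have no background beside them. At 9 h Adcy2, Adcy8 and Pde6d were called in both, while Adcy3, Adcy5, Adcy6 and Pde12 were lost (adjusted P = 0.134, 0.086, 0.0739 and 0.1) and Pde4c and Pde5a were gained. Of the contrasts with 1 h, normexp kept those of Adcy5 and Adcy8 at 6 h and 9 h. Within the first scan day, Pde3b was the 1 member called at 0.5 h.

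Adcy8, a cyclase stimulated by calcium and calmodulin, passed no test against 0 h up to 3 h and fell to 0.39 of its 0 h signal by 6 h. Its 3 arrays read 0.11, 0.63 and 0.43 at 0 h, 0.02, 0.43 and 0.23 after 0.5 h and 0.42, 0.47 and 0.38 after 1 h. They read 0.05, 0.20 and 0.02 after 3 h, -1.06, -0.81 and -1.07 after 6 h and -0.93, -0.27 and -0.69 after 9 h. All arrays of 6 h and 9 h lay below all arrays of the earlier time-points. The change against 0 h was called at 6 h (log2 change -1.37, SE 0.17, adjusted P = 7.28e-05) and at 9 h (log2 change -1.02, SE 0.17, adjusted P = 0.000479), and the changes against 1 h were -1.40, adjusted P = 7.87e-05 at 6 h and -1.05, adjusted P = 0.000451 at 9 h. These calls were kept in all 31 alternative analyses of the contrasts with 0 h and all 33 of those with 1 h. Adcy2, which G protein beta-gamma subunits can stimulate, was 1.69, 1.51 and 0.83 at 0 h, 0.75, 0.88 and 1.28 after 0.5 h and 0.78, 1.02 and 0.86 after 1 h. It was 0.81, 0.92 and 0.92 after 3 h, 0.49, 0.28 and 0.17 after 6 h and -5.8e-05, 0.10 and 0.19 after 9 h. The arrays of 9 h lay below all arrays up to 3 h, and replicate 3 of 0 h lay within the range of 0.5 h to 3 h. Adcy2 fell at 6 h (log2 change -1.03, SE 0.19, adjusted P = 0.00143) and at 9 h (log2 change -1.25, SE 0.19, adjusted P = 0.000262), in all 31 alternatives. Against 1 h it was lower at 9 h (-0.79, adjusted P = 0.00652) and at 6 h (-0.57, adjusted P = 0.038), where the second call was lost in 17 of 33 alternatives, among them those without any 1 of the arrays of 1 h or 3 h (adjusted P = 0.0468 to 0.106) or without replicate 3 of 6 h (adjusted P = 0.113). It was also lost without replicate 2 of 0 h, 0.5 h or 6 h (adjusted P = 0.0426, 0.0478 and 0.0927) and without any 1 array of 9 h (adjusted P = 0.0428 to 0.0482). The other losses came with normexp, no filter on dim probes, a replicate block and scan day as a block (adjusted P = 0.201, 0.0543, 0.0529 and 0.0428).

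Adcy5 and Adcy6 are the related cyclases that calcium inhibits. Adcy5 read -0.37, -0.30 and 0.11 at 0 h, -0.45, -0.64 and -0.47 after 0.5 h and -0.36, -0.30 and -0.07 after 1 h. It read -0.24, -0.97 and -0.64 after 3 h, -1.24, -1.41 and -0.87 after 6 h and -0.90, -0.86 and -0.76 after 9 h. The arrays of 6 h and 9 h lay below those of 0 h, 0.5 h and 1 h, and 1 array of 3 h lay among them. Adcy5 fell at 6 h (log2 change -0.99, SE 0.18, adjusted P = 0.00152), with the call kept in all 31 alternatives, and at 9 h (log2 change -0.65, SE 0.18, adjusted P = 0.014), where it was lost without replicate 3 of 0 h (adjusted P = 0.0671) or replicate 1 of 9 h (adjusted P = 0.0423). Against 1 h it was lower at 6 h (-0.93, adjusted P = 0.00243) and at 9 h (-0.60, adjusted P = 0.0261), and the latter call was lost without either replicate 2 or 3 from 1 h (adjusted P = 0.0484 and 0.0834), without either replicate 1 or 2 from 9 h (adjusted P = 0.0791 and 0.06) and within the second scan day (adjusted P = 0.086). Adcy6 changed less. Its bright probe read 3.39, 3.67 and 3.48 at 0 h, 3.14, 3.21 and 3.25 after 6 h and 3.20, 3.16 and 3.25 after 9 h, with a range of 3.22 to 3.60 at the time-points between. All arrays of 6 h and 9 h lay below those of 0 h, by -0.31 (SE 0.09, adjusted P = 0.0195) and -0.31 (adjusted P = 0.0151). Bright probes as a whole shifted in the same direction, as the brightest sixth of all probes tested, which holds Adcy6, had a median change of -0.15 at both 6 h and 9 h. Neither call of Adcy6 held with normexp (adjusted P = 0.515 and 0.377), quantile normalization (adjusted P = 0.092 and 0.104) or the deposited matrix (adjusted P = 0.131 and 0.144), nor without replicate 2 of 0 h (adjusted P = 0.0919 and 0.0715), and single arrays of 6 h (replicate 1, adjusted P = 0.0697) or 9 h (replicates 1 and 2, adjusted P = 0.0401 and 0.0441) also decided them. Against 1 h it was lower at 6 h (-0.29, adjusted P = 0.0289) and 9 h (-0.29, adjusted P = 0.0264). Neither call held with quantile normalization (adjusted P = 0.0734 and 0.0981), within the second scan day (adjusted P = 0.0548 and 0.0739) or without replicate 3 of 1 h (adjusted P = 0.0887 and 0.0771). Leaving out replicate 1 or replicate 2 of the later time-point ended the call at 6 h (adjusted P = 0.0926 and 0.0649) and that at 9 h (adjusted P = 0.0708 and 0.0733). A second, dim probe of Adcy6 went the other way. It read -3.77, -4.48 and -3.49 at 0 h and -2.69, -2.71 and -2.81 after 0.5 h, and was called higher at 0.5 h (log2 change 1.18, SE 0.24, adjusted P = 0.0147), 3 h and 6 h. With quantile normalization the call at 0.5 h alone was kept, and within the first scan day it was not (adjusted P = 0.0717), nor without replicate 2 of 0 h (adjusted P = 0.0563) or replicate 1 of 0.5 h (adjusted P = 0.0528). The array annotation places 25 bases of it on chromosome 7, chr7:137339932-137339956, against 60 bases of the bright probe (chr7:137340356-137340415).

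Adcy9, a widely expressed cyclase that forskolin stimulates little, was the earliest cyclase to be called lower. It read 0.46, 0.86 and 0.59 at 0 h, 0.07, 0.14 and 0.21 after 0.5 h and 0.06, -0.23 and -0.26 after 1 h. Later it read 0.38, 0.02 and 0.38 after 3 h, 0.07, 0.06 and 0.08 after 6 h and -0.10, -0.07 and 0.11 after 9 h. Every array after injury lay below every array of 0 h. The changes were called at 1 h (log2 change -0.78, SE 0.13, adjusted P = 0.00307), 6 h (log2 change -0.57, SE 0.13, adjusted P = 0.00502) and 9 h (log2 change -0.66, SE 0.13, adjusted P = 0.00154), in all 31 alternatives. At 3 h the change was -0.38, adjusted P = 0.0646. The call at 0.5 h (log2 change -0.50, SE 0.13, adjusted P = 0.0362) was kept when scan day entered as a block (adjusted P = 0.0294). It was lost with only the arrays of the first scan day, where the change was the same and the adjusted P-value 0.104, without either replicate 2 or 3 from 0 h (adjusted P = 0.146 and 0.0693) and without any 1 array of 0.5 h (adjusted P = 0.0849 to 0.118) or replicate 2 of 6 h (adjusted P = 0.0512). Between 1 h and the later time-points no contrast of this probe was called, and the F-test was lost with only arrays of a shared scan day (adjusted P = 0.14) but kept with scan day as a block, where it tests differences within scan days. The second probe of Adcy9 was lower at 6 h against 0 h (-0.56, adjusted P = 0.0295) and against 1 h (-0.65, adjusted P = 0.0155), where replicate 2 of 6 h decided both calls (adjusted P = 0.103 and 0.0631 without it). The call against 1 h was also lost with only arrays of a shared scan day (adjusted P = 0.0472, unadjusted P-value above 0.01) and with only the 6 arrays of the contrast (adjusted P = 0.141). That against 0 h was also lost without replicate 1 of 6 h or either replicate 1 or 2 from 0 h (adjusted P = 0.0775, 0.0873 and 0.0735). This probe was not called at 0.5 h (-0.24, adjusted P = 0.472) or 1 h (0.08, adjusted P = 0.808). It read -0.49, -0.60 and -0.73 at 0 h and -0.85, -0.88 and -1.03 after 9 h, and did not pass the F-test (adjusted P = 0.0523). Adcy3, known from the cilia of olfactory neurons, was called in no contrast with 0 h. At 1 h it read -1.67, -1.81 and -0.83 and at 3 h -2.14, -2.29 and -2.27, and the call against 1 h (log2 change -0.79, SE 0.20, adjusted P = 0.0224) was lost within the second scan day (adjusted P = 0.0697) and without either replicate 2 or 3 from 3 h (adjusted P = 0.0749 and 0.0729). Its change at 9 h against 1 h (-0.61, adjusted P = 0.035) was called in 14 of 33 alternatives. It was lost without any 1 array of 0 h, 3 h, 6 h or 9 h and without replicate 3 of 0.5 h or of 1 h (adjusted P = 0.0415 to 0.106).

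**Figure D2:**
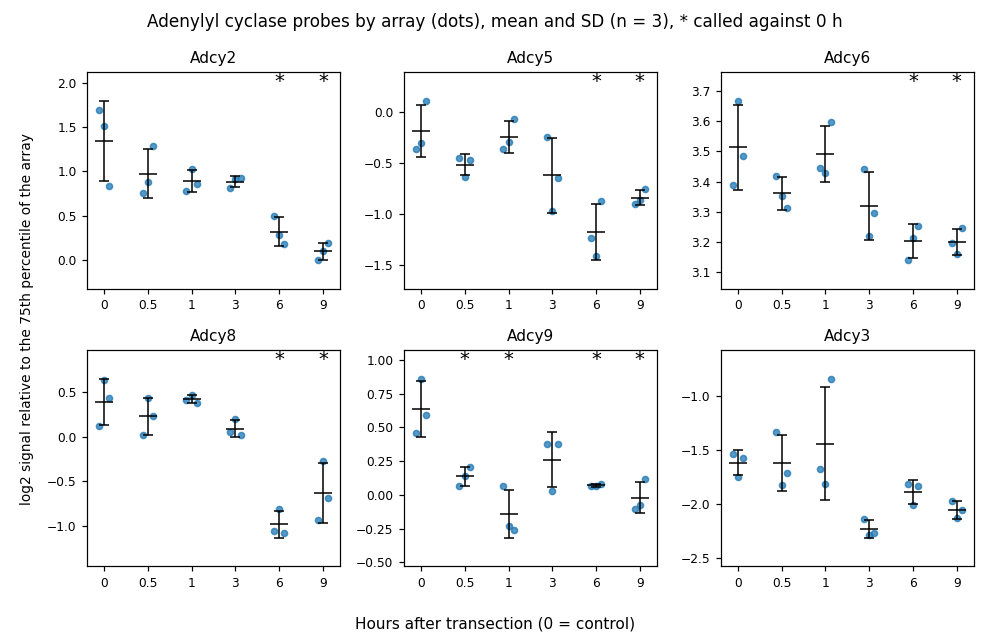
Log2 signal of 6 adenylyl cyclase probes relative to the 75th percentile of the array (vertical axis) at 0, 0.5, 1, 3, 6 and 9 h after transection (horizontal axis). Dots are arrays, in the order of replicates 1 to 3, bars are the mean and SD (n = 3) and a star marks a called change against 0 h. The means of Adcy2, Adcy5 and Adcy8 lie lowest at 6 h and 9 h, those of Adcy9 lie below all dots of 0 h from 0.5 h on, and Adcy3 carries no star.

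The remaining cyclases, Adcy1, Adcy4, Adcy7 and Adcy10, were called in no contrast. Their changes against 0 h ran from -0.65 (Adcy10 at 0.5 h) to 0.78 (Adcy7 at 9 h, adjusted P = 0.0389 with an unadjusted P-value above 0.01). Adcy7 is the cyclase best known from blood cells and Adcy4 from endothelium. At 9 h Adcy4 read -0.84, -1.14 and -0.91 against -1.33, -1.57 and -1.59 at 0 h, arrays that did not overlap, with a change of 0.53, adjusted P = 0.0792. Adcy1 was at the edge of detection, with 0 of 3 arrays well above background at 0.5 h.

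Among the families that act on cAMP alone, Pde4b was the earliest to be called higher, at 1 h, and was called at every later time-point. The Pde4b enzyme is the main one of its family in monocytes and neutrophils. Its 3 arrays read -1.94, -2.04 and -2.67 at 0 h, -1.79, -1.85 and -2.01 after 0.5 h and -1.62, -1.10 and -0.63 after 1 h. They read -0.84, -0.48 and -0.55 after 3 h, -0.86, -0.98 and -1.04 after 6 h and -1.39, -1.55 and -0.96 after 9 h. From 1 h on every array lay above all arrays of 0 h. The gene was called at 1 h (2.14-fold, SE 0.24 on the log2 scale, adjusted P = 0.017), 3 h (log2 change 1.60, SE 0.24, adjusted P = 0.000595), 6 h (log2 change 1.26, SE 0.24, adjusted P = 0.00173) and 9 h (log2 change 0.92, SE 0.24, adjusted P = 0.00903). At 3 h this is a 3.02-fold higher signal. The calls at 3 h and 6 h were kept in all 31 alternatives. That at 1 h was lost without replicate 3 of 0 h or of 1 h (adjusted P = 0.068 and 0.0673), and that at 9 h without replicate 3 of 0 h or of 9 h (adjusted P = 0.046 in both). Against 1 h no later time-point was called, and the F-test was not passed when scan day entered as a block (adjusted P = 0.0918) or with only arrays of a shared scan day (adjusted P = 0.128), so the rise from 0 h cannot be told apart from the scan day. The summed level of 10 neutrophil markers was also higher after injury. It was -0.20 to 0.46 at 0 h, 1.28 to 2.26 at 0.5 h, 1.23 to 2.11 at 1 h, 2.92 to 4.45 at 3 h, 3.85 to 4.48 at 6 h and 4.17 to 4.45 at 9 h. Of the 5 markers that all 3 arrays of 0 h detected above background, S100a8, S100a9, Csf3r and Ncf1 were called higher at 9 h and Mpo was not. Of all genes 15.8% were called higher at 9 h. The markers Mmp8, Mmp9, Ela2 and Fpr1 were well above background on no array of 0 h. The sum of 11 macrophage markers lay between 7.43 and 7.91 on all arrays, while 8 of these 11 markers were called over the time-points, beside 34.6% of all genes. At both 6 h and 9 h 3 were higher and 1 lower, beside 12% and 13% of all genes and then 15.8% and 15.4%. The part of these cells in the Pde4b signal was not tested.

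Pde4d had 4 probes that did not move together. The brightest, chr18_random:264941-265000, was called in no contrast, with changes of -0.50, -0.11, -0.54, -0.17 and -0.16 at the 5 time-points. The probe on the catalytic site, printed above, read -3.77, -3.82 and -4.82 at 0 h and -3.65, -3.44 and -3.69 after 6 h and was not called either (0.54, adjusted P = 0.416). The third probe, chr18_random:268765-268824, had a change of 0.75, adjusted P = 0.0511 at 6 h, past no threshold. The fourth, at chr2:41312606-41312665 on rn4, rose. It read -4.31, -4.56 and -5.20 at 0 h, -4.22, -4.15 and -4.25 after 0.5 h and -4.18, -3.88 and -4.53 after 1 h. It read -3.36, -2.99 and -3.11 after 3 h, -2.66, -2.65 and -2.69 after 6 h and -3.07, -3.25 and -2.65 after 9 h. All 9 arrays from 3 h on lay above the 9 arrays before. It was called at 3 h (log2 change 1.53, SE 0.22, adjusted P = 0.000406), 6 h (log2 change 2.02, SE 0.22, adjusted P = 2.37e-05) and 9 h (log2 change 1.70, SE 0.22, adjusted P = 7.33e-05), and against 1 h at 3 h (1.04), 6 h (1.53) and 9 h (1.21). Of the alternatives to these 3 calls against 0 h, normexp alone lost them (adjusted P = 0.101, 0.207 and 0.339). This probe was named after its values were seen. The array assigns it to another transcript record than the other 3 probes, and whether it belongs to a particular transcript of Pde4d was not tested.

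**Figure D3:**
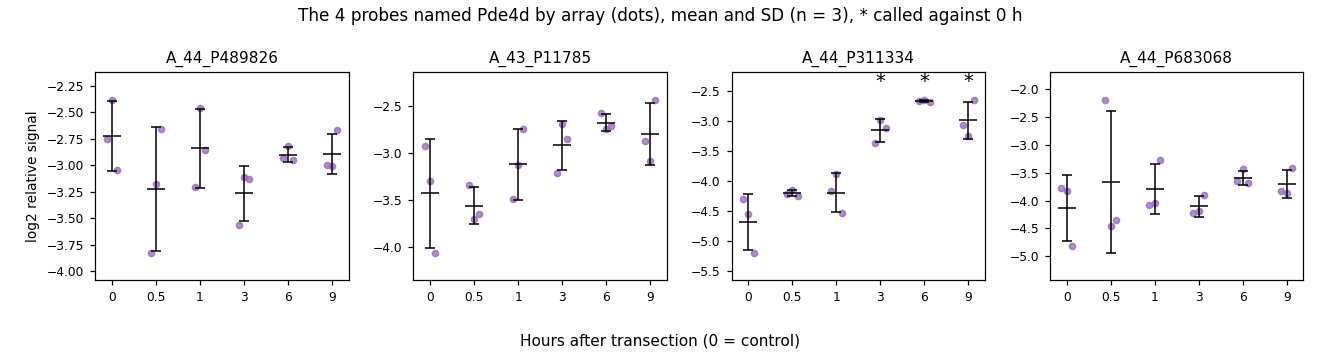
Log2 signal of the 4 probes named Pde4d relative to the 75th percentile of the array (vertical axis, a separate scale for each probe) by hours after transection (horizontal axis), with arrays as dots, mean and SD (n = 3) as bars and stars for called changes. The third panel, the probe on chromosome 2, rises from 3 h on, and the other 3 panels carry no star.

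Pde3b, the phosphodiesterase that carries the effect of insulin on lipolysis in fat cells, peaked at 0.5 h. It read -4.54, -5.02 and -5.16 at 0 h, -2.86, -3.06 and -2.32 after 0.5 h and -3.97, -3.53 and -4.55 after 1 h. The later arrays read -4.41, -3.84 and -3.86 after 3 h, -4.05, -4.07 and -3.65 after 6 h and -3.96, -4.02 and -4.59 after 9 h. The arrays of 0.5 h lay above all others. The change at 0.5 h (log2 change 2.16, SE 0.28, adjusted P = 0.000823) was a 4.46-fold higher signal within 1 scan day, and of 33 alternatives normexp alone lost it (adjusted P = 0.723). The call at 6 h (log2 change 0.98, SE 0.28, adjusted P = 0.0193) was lost with quantile normalization (adjusted P = 0.302) and without either replicate 2 or 3 from 0 h (adjusted P = 0.0634 and 0.0736) or replicate 3 of 6 h (adjusted P = 0.0704). The summed level of 9 adipocyte markers lay between 5.59 and 6.40 at 0 h and between 6.44 and 6.97 at 0.5 h. At 0.5 h 0 of the 8 markers tested were called, beside 4.27% of all genes higher and 1.72% lower. The median change of these markers at 0.5 h was 0.88, and their part in the Pde3b signal was not tested. Pde12 rose later. It read -2.86, -2.58 and -2.83 at 0 h, -2.91, -2.96 and -2.90 after 0.5 h and -2.87, -2.58 and -2.65 after 1 h. It read -2.24, -1.89 and -1.91 after 3 h, -1.69, -1.84 and -2.23 after 6 h and -2.18, -2.26 and -1.71 after 9 h. All 9 arrays from 3 h on lay above the 9 before. Pde12 was called at 3 h (log2 change 0.74, SE 0.16, adjusted P = 0.00913), 6 h (log2 change 0.83, SE 0.16, adjusted P = 0.00234) and 9 h (log2 change 0.71, SE 0.16, adjusted P = 0.00496), and of 31 alternatives normexp alone lost these calls. Against 1 h it was higher at all 3 time-points too, by 0.69, 0.78 and 0.66, and the call at 3 h was lost without replicate 1 of 1 h (adjusted P = 0.0644) or either replicate 2 or 3 from 3 h (adjusted P = 0.0713 and 0.069). The call at 9 h was lost within the second scan day (adjusted P = 0.1).

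Pde1b, which calcium and calmodulin switch on, read -3.40, -3.59 and -3.72 at 0 h and -2.66, -2.37 and -1.33 after 9 h. It read -2.93, -3.08 and -1.74 after 0.5 h, -2.22, -2.68 and -2.44 after 1 h, -3.23, -2.82 and -1.95 after 3 h and -2.56, -2.92 and -3.22 after 6 h. Every array after injury lay above every array of 0 h, and the change was called only at 9 h (log2 change 1.45, SE 0.40, adjusted P = 0.013). This call was lost without replicate 3 of 0 h (adjusted P = 0.0429) or of 9 h (adjusted P = 0.0667). At 0.5 h, 3 h and 9 h replicate 3 read highest, and each of these arrays was alone on its slide. The part of the slide in the Pde1b signal was not tested. Pde7b, a phosphodiesterase of cAMP, had a peak at 3 h. It read -4.36, -4.39 and -4.24 at 0 h, -4.29, -4.49 and -4.87 after 0.5 h and -4.55, -4.77 and -4.53 after 1 h. It read -3.52, -3.73 and -3.66 after 3 h, -3.64, -4.39 and -4.36 after 6 h and -4.73, -4.96 and -4.79 after 9 h. The arrays of 3 h lay above all others but replicate 1 of 6 h. Pde7b was higher at 3 h than at 0 h (log2 change 0.69, SE 0.18, adjusted P = 0.0224) and than at 1 h (log2 change 0.98, SE 0.18, adjusted P = 0.00417). The first call was lost with quantile normalization (adjusted P = 0.128), without either replicate 1 or 2 from 0 h (adjusted P = 0.0565 and 0.0754) or any array of 3 h (adjusted P = 0.0515 to 0.0678), and of the 33 alternatives to the second, normexp alone lost it. Pde8a, a phosphodiesterase with high affinity for cAMP, was called over the time-points (adjusted P = 0.0251) and in no contrast with 0 h. It read -2.56, -2.69 and -2.45 at 0 h, -2.76, -2.78 and -2.86 after 0.5 h and -2.98, -2.74 and -2.77 after 1 h. It read -2.71, -2.56 and -2.39 after 3 h, -2.34, -2.21 and -2.49 after 6 h and -2.61, -2.81 and -2.53 after 9 h. The arrays of 6 h lay above those of 1 h (log2 change 0.48, SE 0.11, adjusted P = 0.00679). The F-test of Pde8a was lost in 18 of 32 alternatives, 12 of them with 1 array left out (adjusted P = 0.03 to 0.077), at least 1 from each time-point.

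Pde5a and Pde6d were the Pde genes called lower. Pde5a, the enzyme of cGMP in vascular smooth muscle that sildenafil inhibits, read -1.97, -1.43 and -1.79 at 0 h and -2.28, -2.47 and -2.17 after 9 h. Its arrays lay between -2.08 and -1.81 at the time-points between. The change at 9 h was called (log2 change -0.58, SE 0.13, adjusted P = 0.00415), and all arrays of 9 h lay below all others. It was lost with normexp (adjusted P = 0.474) and with only the 6 arrays of the contrast (adjusted P = 0.0518). A second, dim probe of Pde5a (chr2:219409552-219409611) read -5.04, -4.69 and -4.81 at 0 h and -4.38, -4.38 and -4.51 after 1 h and was called higher at 1 h (0.43, adjusted P = 0.0289), but not with quantile normalization (adjusted P = 0.815) or without single arrays of 0 h (replicate 1 or 3, adjusted P = 0.101 and 0.0648) or 1 h (replicate 1 or 2, adjusted P = 0.0878 and 0.0646). At 9 h against 0 h its change was -0.08, adjusted P = 0.574. It was also called higher at 0.5 h (0.37, adjusted P = 0.0484), which was lost in 25 of 33 alternatives. The sixth of all probes tested that holds it by brightness had median changes of 0.15 at 0.5 h and 0.17 at 1 h. The dim probe was lower than at 1 h at 6 h (-0.37, adjusted P = 0.0162) and 9 h (-0.51, adjusted P = 0.00242). The call at 6 h against 1 h was lost without replicate 1 or replicate 2 of 1 h (adjusted P = 0.0496 and 0.0463), and neither of these held with quantile normalization (adjusted P = 0.09 and 0.156). The sum of 7 smooth muscle and pericyte markers lay between 5.39 and 5.83 at 0 h and between 5.02 and 5.30 at 9 h. At 9 h 2 of 7 were called lower, beside 15.4% of all genes. The part of these markers in the Pde5a signal was not tested. Pde6d read 2.93, 3.13 and 3.24 at 0 h, 2.92, 3.06 and 2.98 after 0.5 h and 3.10, 3.18 and 2.77 after 1 h. It read 3.04, 2.86 and 2.86 after 3 h, 2.66, 2.81 and 2.58 after 6 h and 2.36, 2.56 and 2.35 after 9 h. The arrays of 9 h lay below all others. Its fall was called at 9 h (log2 change -0.67, SE 0.12, adjusted P = 0.000873), in all 31 alternatives, and at 6 h (log2 change -0.42, SE 0.12, adjusted P = 0.02), where the call was lost without either replicate 2 or 3 from 0 h (adjusted P = 0.06 and 0.0824) or either replicate 1 or 3 from 6 h (adjusted P = 0.0564 and 0.0695). The brightest sixth of probes, with a median change of -0.15 at 6 h and 9 h, holds Pde6d too.

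**Figure D4:**
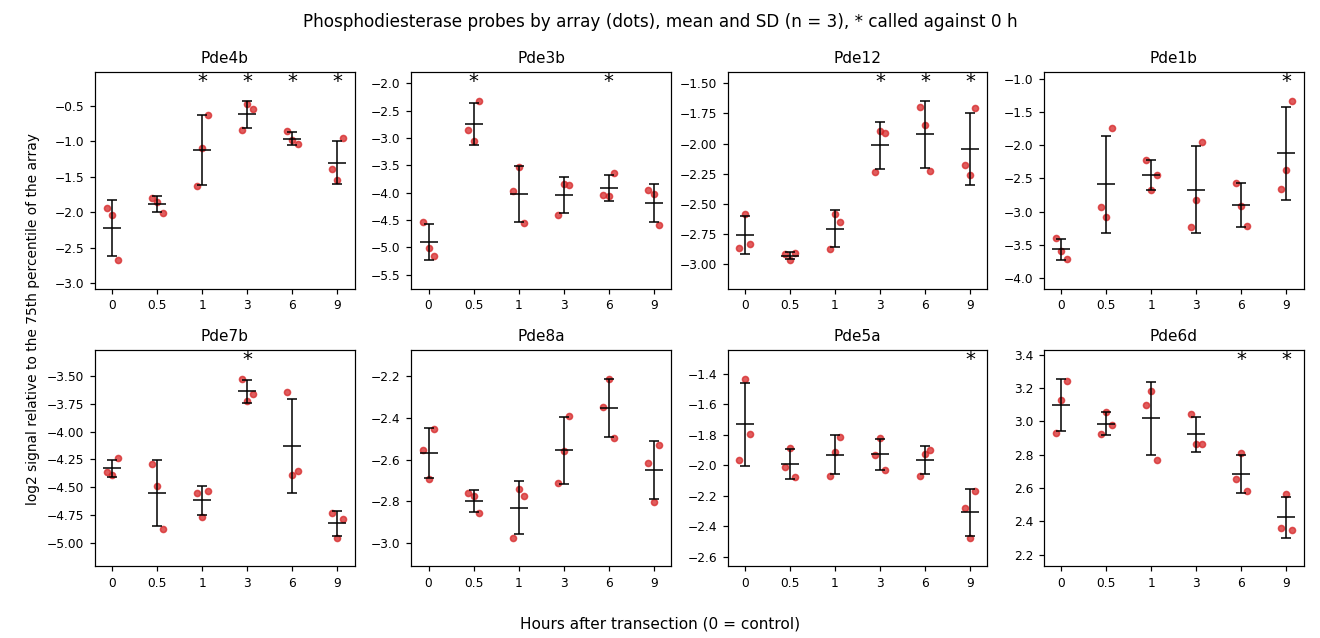
Log2 signal of 8 Pde probes relative to the 75th percentile of the array (vertical axis, a separate scale for each gene) by hours after transection (horizontal axis), with arrays as dots in the order of replicates 1 to 3, mean and SD (n = 3) as bars and stars for called changes against 0 h. Pde3b is highest at 0.5 h, Pde4b and Pde7b at 3 h, Pde12 from 3 h to 9 h, and Pde5a and Pde6d are lowest at 9 h. Pde8a carries no star.

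The other 13 Pde genes tested were called nowhere. Pde4dip had the largest of their changes, -1.71 to -1.16 against 0 h, with 1 high array at 0 h. Its arrays of 0 h read 1.27, -2.55 and -2.17, those of 3 h -3.57, -1.52 and -3.49 and those of 6 h -0.94, -3.37 and -2.63. At each of the 6 time-points the array with the highest reading was also the one with the highest sum of muscle markers, which was 10.6 before injury, 8.24 after 3 h and 8.76 after 6 h. The part of muscle RNA in the Pde4dip signal was not tested. Pde2a, which cGMP activates, read -2.23, -2.47 and -2.45 at 0 h and -3.16, -3.56 and -3.13 after 9 h. Its arrays of these time-points did not overlap, with a change of -0.90, adjusted P = 0.0476 and an unadjusted P-value above 0.01. For Pde1a, Pde1c, Pde4a, Pde4c, Pde7a, Pde9a and Pde10a the change lay between -0.63 (Pde4a at 0.5 h) and 0.72 (Pde4c at 0.5 h). Pde3a, Pde6a, Pde6h and Pde11a were well above background on 9, 6, 15 and 8 of the 18 arrays. Pde6a was admitted to the tests through 6 h alone and Pde11a through 9 h alone, so no change is given for these 4 genes.

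The pathway around these enzymes was described with lists of 108 genes on the array, 93 of them tested, of which 46 were called over the time-points, beside 34.6% of all genes. Among receptors that act through cAMP 9 of 13 were called over the time-points. At 9 h 8 were higher and 2 lower against 0 h, beside 15.8% and 15.4% of all genes, with a median change of 1.02 beside 0.01 for all genes. Against 1 h the split was 3 higher and 2 lower at both 6 h and 9 h, beside 11.4% and 12.6% of all genes and then 11.7% and 13.7%, with medians of -0.14 and 0.33. Ptger2, a receptor of prostaglandin E2, rose by 2.19 at 9 h (SE 0.29, adjusted P = 0.000104). The adenosine receptor Adora2b rose by 1.94 at 6 h (SE 0.19, adjusted P = 1e-05). Crhr1, a receptor of corticotropin-releasing hormone, rose by 1.67 at 9 h (adjusted P = 0.00289), and the prostacyclin receptor Ptgir by 1.88 (adjusted P = 0.00212). Gpr126, the receptor through which Schwann cells raise cAMP to start myelination, had a change of -0.63 at 9 h (adjusted P = 0.00515). Of these 5 receptors Ptgir was not called at 9 h against 1 h (0.33, adjusted P = 0.568).

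Downstream of cAMP, 2 of 10 genes of protein kinase A and its inhibitors were called over the time-points, a share below the 34.6% of all genes. Of these Prkar2a, a regulatory subunit, was higher at 6 h by 1.38 (SE 0.29, adjusted P = 0.00342), while the catalytic subunits Prkaca and Prkacb had changes of -0.19 and -0.14 and were not called. Among A-kinase anchoring proteins, which hold the kinase in place, 10 of 14 were called over the time-points (all genes 34.6%), and at 9 h 4 were higher and 3 lower (all genes 15.8% and 15.4%), with 3 and 2 against 1 h (all genes 11.7% and 13.7%). Akap2 rose by 1.36 at 3 h (SE 0.26, adjusted P = 0.00347) but was not called against 1 h (0.65), and Akap9 had a change of -0.72 at 9 h (adjusted P = 0.000127). In the CREB family 5 of 10 were called, beside the same 34.6%. Crem, whose product includes an inducible repressor of cAMP-driven transcription, rose by 1.71 at 3 h (SE 0.19, adjusted P = 5.78e-05), and Sik1, a kinase that CREB induces and that holds back its coactivators, by 1.86 at 1 h (adjusted P = 2.23e-05). Creb1 itself was higher at 9 h by 0.86 (adjusted P = 0.00011). Of G proteins and their regulators 3 of 10 were called, near the 34.6% of all genes, with Gnaz lower at 9 h (-0.85, adjusted P = 0.000411) and Rgs2 higher at 3 h (1.08, adjusted P = 0.000491), though not against 1 h (0.25). The stimulatory subunit Gnas had a change of -0.27 at 9 h and was not called.

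For cGMP, 7 of 9 genes of guanylyl cyclases, their kinases and nitric oxide synthases were called over the time-points, beside 34.6% of all genes, and at 9 h 3 were lower and 2 higher, beside 15.4% and 15.8%. Against 1 h 4 were lower and 2 higher, beside 13.7% and 11.7%. Gucy1a3, a subunit of the guanylyl cyclase that nitric oxide stimulates, had a change of -1.07 at 9 h (SE 0.18, adjusted P = 0.000589), and Npr2, the receptor of C-type natriuretic peptide, one of -0.80 (adjusted P = 0.000106). The endothelial synthase Nos3 rose by 1.53 (adjusted P = 0.0002). Of 12 other effectors 2 were called, below the share of 34.6% of all genes, the channel subunit Cnga4 and the pacemaker channel Hcn2, which had a change of -0.81 at 9 h (adjusted P = 0.000139). Nos2, the inducible synthase, and Cnga4 are counted here as higher but passed the filter through later time-points, as they were well above background on 0 of 3 arrays at 0 h and 3 of 3 at 9 h, so no change is given for them. Both exporters of cyclic nucleotides were called over the time-points, beside 34.6% of all genes. At 9 h 1 of the 2, Abcc5, was lower (-0.50, adjusted P = 0.00207), beside 15.4% of all genes.

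Of 13 myelin genes and their regulators 6 were called over the time-points, beside 34.6% of all genes. At 1 h the median change of the list against 0 h was 0.19. At 6 h against 0 h 2 were lower and 0 higher, beside 13% and 12% of all genes, with a median of -0.28. At 9 h against 0 h 5 were lower and 0 higher, beside 15.4% and 15.8%, with a median of -0.27. At both 6 h and 9 h 8 were lower than at 1 h, beside 12.6% and 13.7% of all genes. Mag changed by -0.90 at 9 h (SE 0.18, adjusted P = 0.0023) and Pmp22 by -0.60 (adjusted P = 0.0019). Egr2, the transcription factor that drives these genes, rose by 1.43 at 1 h (adjusted P = 0.000332) and was no longer called at 9 h (0.42, adjusted P = 0.071). The changes of Adcy2, Adcy5 and Adcy8 against 0 h were called at 6 h and 9 h. The sum of 13 Schwann cell markers, 7 of them also in the myelin list, lay at 9.73 to 9.98 before injury and at 9.38 to 9.57 after 9 h. At 9 h 6 of these 13 markers were called lower and 2 higher, beside 15.4% and 15.8% of all genes. The sum of 8 fibroblast markers lay at 10.51 to 10.60 before injury and at 10.02 to 10.10 after 9 h. That of 9 endothelial markers lay at 5.80 to 5.91 and then at 5.41 to 5.47. The part of these shifts in the falls of the cyclases was not tested.

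**Figure D5:**
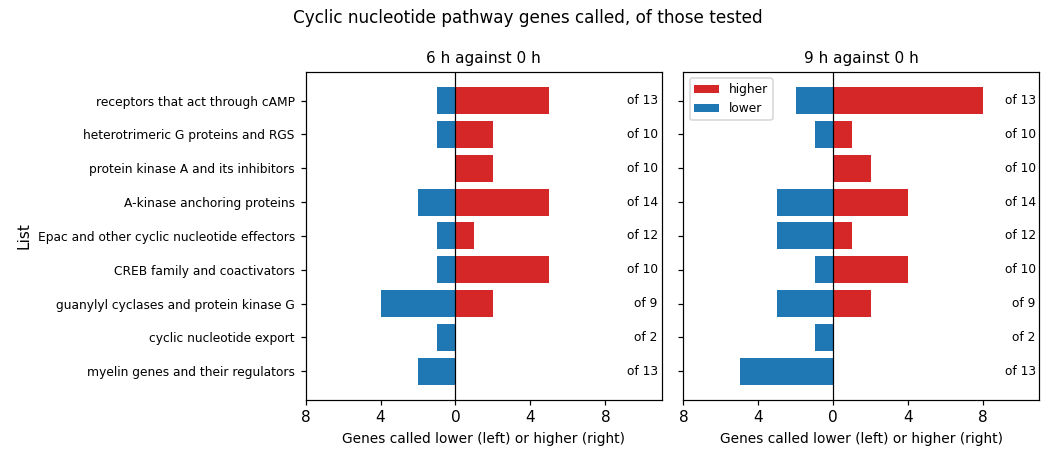
Number of genes called higher (red, to the right) or lower (blue, to the left) against 0 h at 6 h (left panel) and 9 h (right panel) for 9 lists of genes around cyclic nucleotides and myelin, with the number tested at the right edge. At 9 h 8 of 13 receptors were higher and 2 lower and 5 of 13 myelin genes were lower and 0 higher, beside 15.8% of all genes higher and 15.4% lower. Against 1 h, which is not drawn, 3 receptors were higher and 2 lower, and 8 myelin genes were lower and 0 higher.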

How the data were processed

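RNA of the proximal nerve segments was labelled with 1 dye and hybridised to 18 Agilent rat arrays, 3 at each of 6 time-points. Per the file headers, the deposited scanner intensities are processed signals of Feature Extraction 10.5.1.1, with background subtracted and spatial trends removed, on probes placed on rn4. The deposited matrix holds the authors' log2 values, normalized between arrays, and was used only as an alternative.

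Processed signals were set relative to the 75th percentile of each array on the log2 scale. Spots marked as controls or outliers were removed, spots of 1 probe were averaged, and 32109 of 41012 probes were tested. limma 3.58.1 in R 4.3.3 was fitted to all arrays with time as the factor, without a block, and P-values were adjusted over all probes. A call needed an unadjusted P-value below 0.01 and an adjusted one below 0.05. Median signals were 145.2 to 264.0, arrays of a time-point correlated at 0.976 to 0.992, no spot was saturated, and precision is limited by the number of arrays. The alternatives changed the background correction (normexp, offset 50), scaling, filter, scan day, slide, weights, prior, arrays used or replicate block, and a skeletal muscle covariate was added after seeing the data. The members, gene lists and sequences were chosen with earlier results of these data known. Genes named in full were those called over the time-points or against 0 h. Other probes of a member were named where they disagreed with the brightest. Pathway genes named were among the 6 called genes of a list with the largest change against 0 h, except Gpr126, Gnas, Prkaca and Prkacb, named after their values were seen. Sequences were to be chosen by a match to proteins, for which no table was used here, so probes and promoters were chosen by the motifs given. Scripts were tested on simulated data. The result of 1 pathway gene is not reported here.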

Additional observations from a re-analysis of the deposited data

Results flagged for a closer look

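For 9 members the change against 0 h differed between time-points by a test of the difference itself, the limma contrast with 1 h. For Adcy3 the difference was -0.79 between 3 h and 1 h (adjusted P = 0.0224) and -0.61 between 9 h and 1 h (adjusted P = 0.035), with changes against 0 h of 0.18 at 1 h, -0.62 at 3 h and -0.44 at 9 h. For Adcy8 it was -1.40 at 6 h (adjusted P = 7.87e-05) and -1.05 at 9 h (adjusted P = 0.000451), with a change of 0.03 at 1 h. For Pde7b the difference between 3 h and 1 h was 0.98 (adjusted P = 0.00417), and the changes against 0 h were 0.69 and -0.29. For Pde8a the difference between 6 h and 1 h was 0.48 (adjusted P = 0.00679), and the changes were 0.22 and -0.26.

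For the remaining 5 the changes against 0 h had the same sign at 1 h and later. Adcy2 differed from 1 h by -0.57 at 6 h and -0.79 at 9 h, Adcy5 by -0.93 and -0.60, and Adcy6 by -0.29 at both. Pde6d differed by -0.59 at 9 h (adjusted P = 0.00239). Pde12 differed by 0.69 for 3 h, 0.78 for 6 h and 0.66 for 9 h.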

How the results depend on the processing

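Of 42 called changes of members, 14 kept their call under every alternative. Among 1338 values under alternatives, 1195 kept direction and call, 142 lost the call and 1 changed sign, Pde8a at 6 h against 1 h with normexp (-0.059). With normexp the members called were 5 over the time-points, 0 for 0.5 h, 1 for 1 h, 1 for 3 h, 5 for 6 h and 5 for 9 h, and against 1 h 0 for 3 h, 2 for 6 h and 2 for 9 h, with 19 pathway genes. Within a shared scan day there were 6 over the time-points and 1 at 0.5 h, with 29 pathway genes. Array weights gave 16 over the time-points, 4 for 0.5 h, 4 for 1 h, 8 for 3 h and 16 for 9 h. Probes above background on all 18 arrays gave 4 at 0.5 h and 6 at 3 h, a shift to the median 6 at 3 h, and a trended, robust prior 5 at 3 h. With only the 6 arrays of a contrast there were 1 at 0.5 h, 5 at 3 h, and against 1 h 1 at 3 h and 4 at 9 h. Any probe of a gene gave 4 at 0.5 h and 5 at 3 h. Shares of all genes called were computed for the main fit and for the contrasts under normexp and the alternative scalings. Outside these, here and below, they were not computed, so no background stands beside those counts. The cause of these shifts was not tested.

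Leaving out 1 array gave 9 to 12 members over the time-points, 1 to 3 for 0.5 h, 2 for 1 h, 2 to 6 for 3 h, 6 to 10 for 6 h and 7 to 13 for 9 h. Against 1 h it gave 1 to 4 at 3 h (1 without replicate 3 of 3 h), 5 to 6 at 6 h and 4 to 9 at 9 h (4 without replicate 1 or 2 of 9 h), and 41 to 49 pathway genes. At 3 h against 0 h it was 5 without replicate 2 and 6 without replicate 3 of 1 h. Replicate numbers were not taken as pairs, since some same-numbered deviations correlated below 0 (-0.26 to 0.56). As a hint from the data, not the design, 10 of 18 arrays correlated best with their own number. The replicate block gave 10 members over the time-points, 3 at 0.5 h, 4 at 3 h and 12 at 9 h. A scan-day block could not be fitted for later time-points against 0 h. Changes varied with brightness, as the median of the dimmest sixth of probes shifted by 0.49 at 6 h and that of the brightest by -0.15. The spread of dim probes was not compared with that of bright ones.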
